A study of Saccharomyces cerevisiae with 262 samples.

Results

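Haploid segregants of a cross between the laboratory yeast strain BY4716 (BY) and the wild wine strain RM11-1a (RM) were ranked by their transcript levels of 3 amino acid synthesis genes, and the segregants at the top of that ranking were set against those at the bottom. The 3 genes were HIS5, which encodes the histidinol-phosphate aminotransferase, SER33, a phosphoglycerate dehydrogenase that opens serine synthesis, and HOM2, the aspartate semialdehyde dehydrogenase on the route to threonine and methionine. Each gene was centred over the segregants, and the mean of the 3 centred values was the score. Of 113 segregants, 3 were left out by the rule and 2 lacked a value for SER33. The remaining 108 gave 36 high-score, 36 middle and 36 low-score segregants, out of 131 dye-swap pairs in the whole series. The levels of the 3 score genes chose these groups, so their values are given as a description, and the comparison concerns the genes outside the score.

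In yeast, starvation for any one of many amino acids raises transcription of enzymes of most amino acid pathways at once, a response named general amino acid control. The kinase Gcn2 senses uncharged tRNA and phosphorylates the initiation factor eIF2, which lowers general translation while raising translation of the GCN4 mRNA. Gcn4 then activates genes of amino acid, purine and vitamin synthesis, so that the abundance of the GCN4 transcript need not follow the activity of the protein. Leucine synthesis has a further activator, Leu3, which acts when the pathway intermediate isopropylmalate is present.

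Total RNA of each strain was hybridised on 2-colour arrays against 1 pool of BY4716 RNA, and each strain had 2 arrays with the dyes exchanged. The 262 arrays comprised 113 segregant pairs, 12 RM pairs filed under 6 replicate numbers and averaged to 6 replicates, and 6 BY pairs. The labels give strain names and dyes, and neither genotypes, growth conditions nor whether replicate numbers stand for separate cultures, so the p-values between the parents measure the spread between those samples, which may be technical. Values below are log2 ratios of a strain over the BY pool, averaged over its 2 arrays, and differences are differences of these ratios. The direction and the base of the logarithm were not stated and are likely rather than known: they were taken from the range of the values and from strain markers, such as LEU2, which averaged −5.87 in the 12 RM pairs and 0.07 in the 6 BY pairs.

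Each array had 7085 probes, and 3597 to 6581 of them carried a value. The 2 arrays of a segregant correlated at 0.371 to 0.899 over probes, apart from 3 segregants at 0.0804 (21-1-d), 0.156 (22-5-d) and 0.155 (23-2-d), which the rule left out. The pair values of 22-5-d and 23-2-d correlated with each other at 0.892, above every other pair of segregants (next 0.812). The own-Cy5 array of 22-5-d correlated at 0.798 with the own-Cy3 array of 23-2-d, and the own-Cy5 array of 23-2-d at 0.796 with the own-Cy3 array of 22-5-d. Among the BY replicates, numbers 1 and 2 differed from the other 4, and results that rest on BY are also given with replicates 3 to 6 alone.

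The score ran between 0.0340 and 1.79 in the high-score segregants (median 0.698), between −0.319 and 0.0293 in the middle segregants (median −0.184), and between −0.834 and −0.331 in the low-score segregants (median −0.527). At the upper boundary stood 6-7-d at 0.0340, just inside, and 1-4-d at 0.0293, just outside. At the lower boundary stood 10-4-d at −0.331, just inside, and 6-1-d at −0.319, just outside. The scale was thus stretched at its top, and the high-score segregants covered a wider range than the others combined.

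HIS5 had a lowest, median and highest value of −0.13, 1.60 and 3.13 in high-score segregants, against −0.96, −0.43 and 0.37 in low-score segregants. SER33 had 0.08, 0.48 and 1.86 in high-score segregants, against −0.32, −0.01 and 0.51 in low-score segregants. HOM2 had 0.05, 1.14 and 2.20 in high-score segregants, against −0.44, −0.06 and 0.47 in low-score segregants. SER33 had the narrowest spread and correlated with the score at 0.81, against 0.95 for HIS5 and for HOM2. The 3 genes lie on chromosomes IX, IX and IV, and across 108 segregants HIS5 correlated with SER33 at 0.63 and with HOM2 at 0.83, while SER33 correlated with HOM2 at 0.75. These values share arrays, as do all values of a segregant. The score taken on the arrays with the strain's own RNA in Cy5 correlated at 0.966 with that taken on the arrays with it in Cy3 (n = 108).

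**Figure D1:**
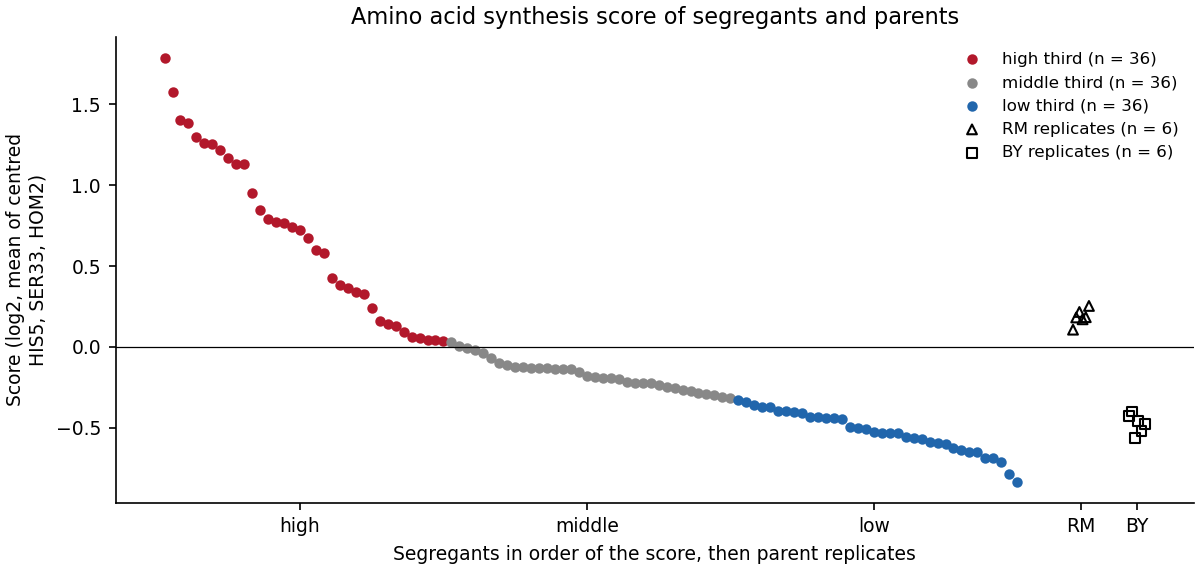
Score of each of 108 segregants (vertical axis, mean centred log2 ratio of HIS5, SER33 and HOM2) by rank, with the 6 RM replicates as triangles and the 6 BY replicates as squares; the high, middle and low groups have 36 segregants each. High-score segregants reach 1.79, whereas RM replicates lie between 0.107 and 0.253 and BY replicates between −0.563 and −0.400.

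On the same scale the RM replicates scored 0.107 to 0.253 (median 0.183) and the BY replicates −0.563 to −0.400 (median −0.469). The parental replicates did not overlap. Of the 108 segregants, 26 scored above the highest RM replicate and 14 below the lowest BY replicate. The spread among segregants therefore went past both parents, further at the high end.

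Outside the score, 5441 probes had a value in at least 80% of the high-score and of the low-score segregants and were tested with limma. At an adjusted p under 0.05, 647 were higher (11.9% of those tested) and 938 lower (17.2%) in high-score segregants, and the median difference over all tested probes was −0.03. Large differences were mostly upward, with 66 called probes above 1 and 13 below −1. With each array centred on its median instead of its mean, 693 were higher (12.9%) and 694 lower (12.9%), so the surplus of lower calls depends on the centring. The spread over probes also differed, with a median SD of 0.515 in high-score and 0.394 in low-score segregants, as did the median correlation between a segregant's 2 arrays, 0.773 in high-score and 0.698 in low-score segregants. Quantile normalization between pairs, which gives them the same spread, left 1596 calls (13.5% higher, 15.9% lower), of which 1334 were among the 1585 in the same direction. Without the segregants whose arrays correlated under 0.5 there were 1491 calls (1366 of the 1585 in the same direction), and with array weights 1557 (1349). In bulk RNA, a change in the share of cells expressing a gene and a change in RNA per cell cannot be told apart.

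The genes tested share RNA and arrays with the score genes, so errors of an array enter both. With segregants grouped on the arrays carrying their own RNA in Cy5 and the levels read on the arrays carrying it in Cy3, 554 probes were higher (9.45%) and 743 lower (12.7%). In the exchanged split, 605 were higher (9.87%) and 807 lower (13.2%). Of the 1585 probes called above, 1125 and 1184 were called in the same direction in these splits, and 0 were called in the opposite direction. The 2 arrays of a segregant may still share an RNA sample, which the labels do not settle.

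The groups also differed in transcripts that mark the parental strains. LEU2, which encodes the isopropylmalate dehydrogenase of leucine synthesis, was far lower in RM than in BY, and each segregant was assigned to LEU2 state RM or BY by the nearer parental mean. LEU2 state RM was held by 29 of 36 high-score, 20 of 36 middle and 8 of 36 low-score segregants. URA3, the orotidine phosphate decarboxylase of uracil synthesis, was in the RM state in 24 high-score and 15 low-score segregants. STE2, the receptor for alpha pheromone, was in the RM state in 24 of 35 high-score and 14 of 36 low-score segregants. Segregants of LEU2 state RM had scores of −0.639 to 1.79 (median 0.042, n = 57) and those of LEU2 state BY −0.834 to 1.13 (median −0.357, n = 51). Above 0.341, LEU2 state BY held only 23-3-d (1.13) and 17-2-d (0.764). At high scores, all fits that use LEU2 state therefore rest on these segregants for state BY, and they were not left out together. With LEU2 state as a covariate, 431 probes were higher (7.92%) and 404 lower (7.43%), and 756 of the 1585 calls held. The 4 marker states together, as covariates, left 746 calls among 66 segregants. Strain names start with a number whose meaning the labels do not give, and 14 of 26 such numbers held both a high-score and a low-score segregant. Compared within those 14 numbers, with the number as a fixed block, 366 probes were higher (6.73%) and 266 lower (4.89%), and 613 of the 1585 calls held.

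The remaining amino acid synthesis genes were higher in high-score segregants across nearly every pathway. Of 94 listed, 92 were on the array, 3 formed the score and 5 had too few values. Of 84 tested genes 68 were higher and 1 lower, and 15 had no call; their median difference was 0.73 against −0.03 over all tested probes. Adding LEU2 state as a covariate left 68 higher and 0 lower, with a median of 0.64. The 1 lower gene was LEU2, whose own transcript assigned that state, so its loss from the count was built in. On the separate arrays 69 and 68 of 84 were higher. Within LEU2 state RM (29 high-score against 8 low-score segregants) 53 of 81 were higher and 0 lower, beside 3.44% higher and 1.78% lower of all probes. Within LEU2 state BY (7 against 28) 52 of 83 were higher and 0 lower, beside 6.47% and 3.73% of all probes.

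**Figure D2:**
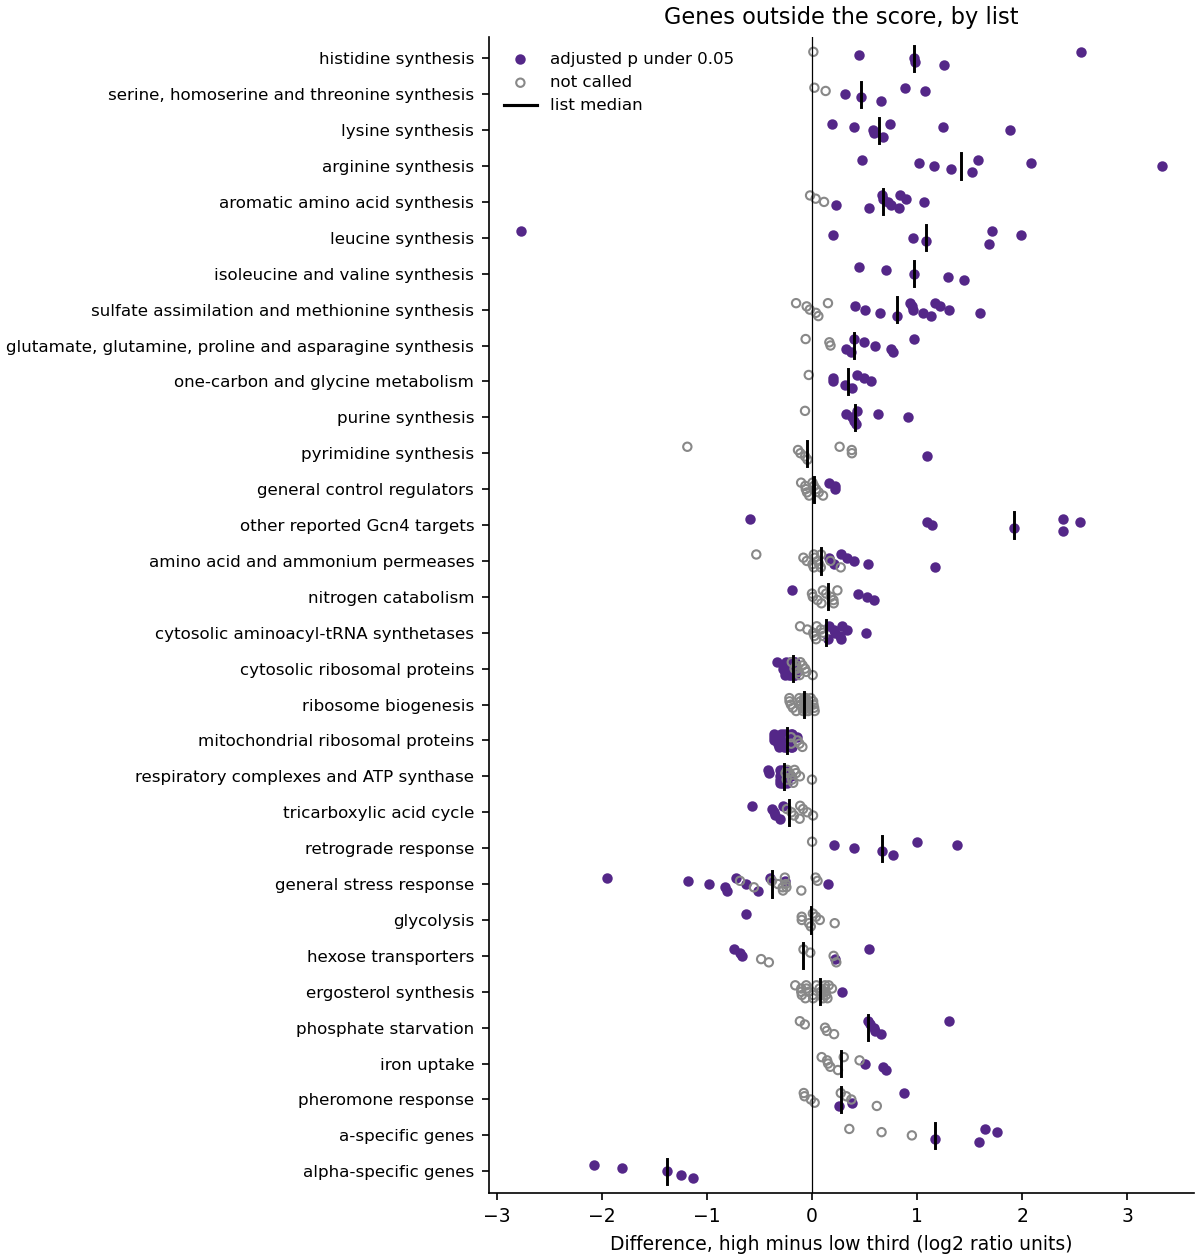
Difference in log2 ratio, high-score minus low-score segregants, of each tested gene (points) in each gene list (rows). Filled points have a limma adjusted p under 0.05 and the bar is the list median; medians of the amino acid lists lie to the right of 0, with LEU2 at −2.77 apart, and those of the mitochondrial and ribosomal protein lists to its left.

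In histidine synthesis, 5 of 6 tested genes were higher and 0 lower, with a median of 0.97. HIS4, whose protein carries out several steps of the pathway including the last, had −0.13, 1.72 and 2.96 (lowest, median, highest) in high-score segregants, against −2.01, −0.89 and 0.18 in low-score segregants. In 34 of 36 high-score segregants HIS4 exceeded every low-score segregant, and the difference of 2.55 (SE 0.182, limma adjusted p = 1.04e-18) stayed at 2.51 with LEU2 state as a covariate. HIS3, HIS7 and HIS1 differed by 1.26, 0.98 and 0.97. The remaining gene, HIS6, was not called.

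The serine, homoserine and threonine list had 5 of 7 tested genes higher and 0 lower (median 0.46). HOM3, the aspartate kinase that commits aspartate to threonine and methionine, had −0.08, 0.93 and 1.88 in high-score segregants, against −0.82, −0.16 and 0.50 in low-score segregants, and 26 of 36 lay above every low-score segregant. Its difference was 1.07 (SE 0.104, limma adjusted p = 1.70e-13). SER1, the phosphoserine aminotransferase, differed by 0.88 and THR4, threonine synthase, by 0.46. SER3 differed by 0.65, but it is a close paralog of the score gene SER33 and a probe may read both transcripts.

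All 8 tested arginine genes were higher, with a median of 1.42. ARG1, the argininosuccinate synthetase, showed the largest difference of any named gene: it had −2.22, 1.75 and 3.70 in high-score segregants, against −3.45, −1.82 and 1.61 in low-score segregants. The ranges overlapped, with 19 of 36 high-score segregants above every low-score one, and the difference was 3.33 (SE 0.272, limma adjusted p = 2.69e-16). ARG3, ornithine carbamoyltransferase, differed by 2.08, with ranges that overlapped widely, from −2.47 to 3.31 in high-score and from −3.72 to 1.93 in low-score segregants. ARG7, ARG4 and ORT1, which make and export ornithine or release arginine, differed by 1.58, 1.52 and 1.02.

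All 8 tested lysine genes were higher as well (median 0.63). LYS1, saccharopine dehydrogenase, the last enzyme of the pathway, had −0.54, 1.61 and 3.19 in high-score segregants, against −0.96, −0.43 and 0.26 in low-score segregants, and 32 of 36 lay above every low-score segregant. It differed by 1.88 (SE 0.180, limma adjusted p = 1.46e-13), and LYS20, homocitrate synthase, the first enzyme, by 1.25. LYS12 and LYS4, which act between them, differed by 0.58 and 0.59.

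In the aromatic pathway 10 of 13 tested genes were higher and 0 lower (median 0.67). ARO3 and ARO4 encode the paired synthases of the first step, inhibited by different end products. ARO3 had −0.27, 0.83 and 1.74 in high-score segregants, against −0.73, −0.29 and 0.17 in low-score segregants, and differed by 1.06 (SE 0.102, limma adjusted p = 1.69e-13). ARO4 differed by 0.83, and TRP4 and TRP3 of the tryptophan branch by 0.89 and 0.84. The genes without a call were ARO7, TRP1 and PHA2.

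Branched-chain synthesis held both large increases and the exception. Of 7 tested leucine genes, 6 were higher and 1 was lower (median 1.09), and all 5 isoleucine and valine genes were higher (median 0.97). LEU4, the main isopropylmalate synthase, had −0.17, 1.83 and 3.01 in high-score segregants, against −0.40, 0.02 and 0.85 in low-score segregants. Of 35 high-score segregants with a value, 30 lay above every low-score segregant, and the difference was 1.68 (SE 0.137, limma adjusted p = 2.93e-16), or 1.16 with LEU2 state as a covariate. OAC1, a mitochondrial carrier of oxaloacetate and isopropylmalate, and BAT1, the mitochondrial branched-chain aminotransferase, differed by 1.99 and 1.71, and by 0.98 and 0.91 with that covariate. ILV3 and ILV2, the dihydroxyacid dehydratase and the acetolactate synthase, differed by 1.44 and 1.29.

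LEU2 was the 1 amino acid gene that was lower, with a difference of −2.77 (SE 0.518, limma adjusted p = 2.43e-05). It had −5.88, −4.97 and 0.80 in high-score segregants, against −5.89, −0.24 and 0.95 in low-score segregants, so both groups held segregants near the RM level and near the BY level, in different shares. LEU2 state was assigned from this same transcript, so a fit that uses it removes most of the LEU2 difference by construction. With that state as a covariate the difference was 0.34 and not called, which is no result about LEU2. LEU1, the isopropylmalate isomerase, had a value in 18 of 36 high-score and 35 of 36 low-score segregants and was not tested.

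**Figure D3:**
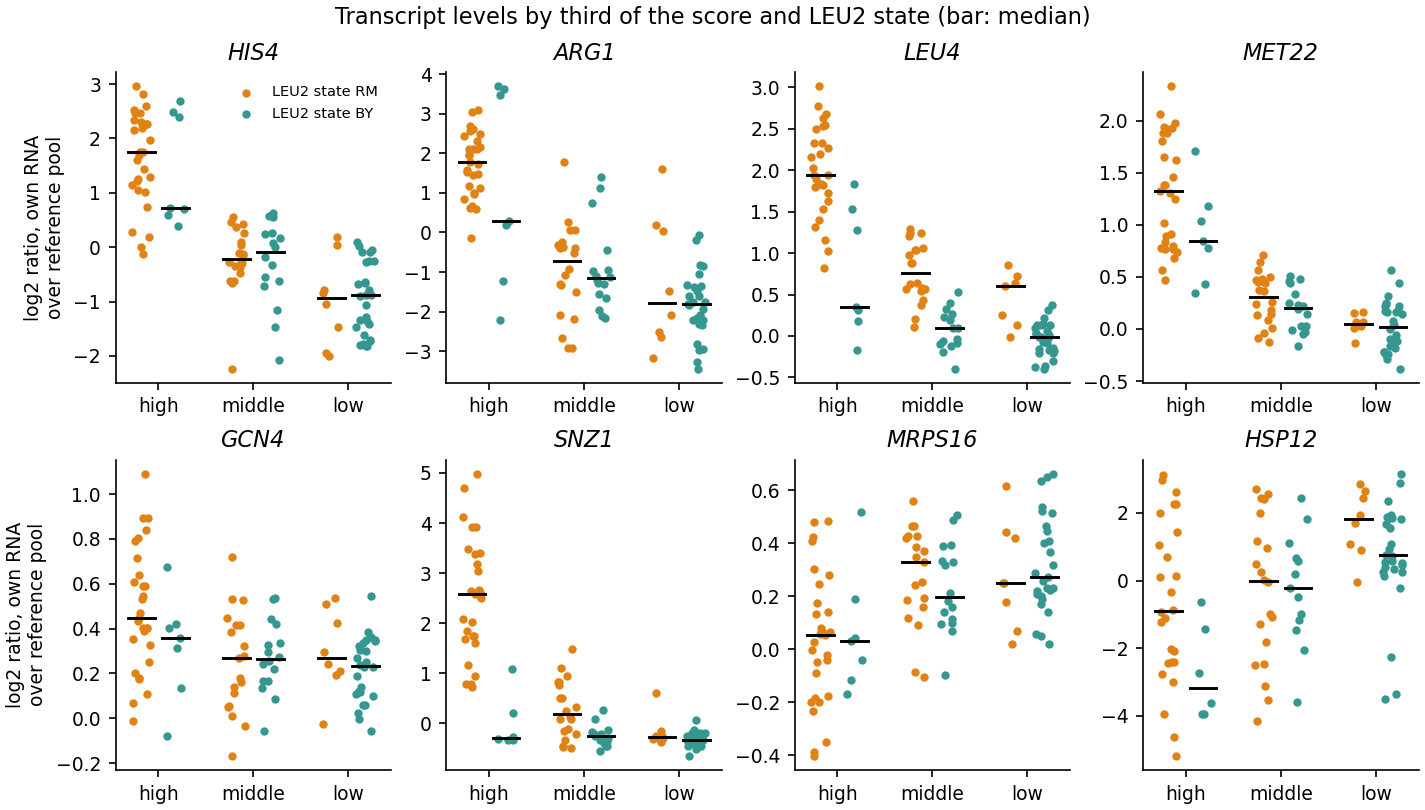
Log2 ratio over the BY pool (vertical axis) of 8 genes in high-score, middle and low-score segregants, 1 point per segregant, coloured by LEU2 state, with bars at the medians. HIS4 differs between high-score and low-score segregants in both LEU2 states (2.63 within state RM and 2.37 within state BY), SNZ1 is high mainly in state RM, and GCN4, MRPS16 and HSP12 overlap between groups.

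Sulfate assimilation and methionine synthesis had 13 of 19 tested genes higher and 0 lower (median 0.81). With the 4 marker states as covariates 8 of 19 were higher. Within LEU2 states RM and BY 6 of 16 and 6 of 19 were (10 and 11 at an unadjusted p under 0.05). MET22, the phosphatase that clears the by-product of sulfate reduction, had 0.35, 1.22 and 2.33 in high-score segregants, against −0.38, 0.03 and 0.57 in low-score segregants. In 32 of 36 high-score segregants it exceeded every low-score segregant, and the difference was 1.21 (SE 0.0960, limma adjusted p = 8.74e-17). MET10, a sulfite reductase subunit, STR3, cystathionine beta-lyase, and MET16, the PAPS reductase, differed by 1.60, 1.31 and 1.17. The genes of the later steps CYS3, CYS4, SAM1 and SAM2, with MET8 and MET32, were not called.

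In the glutamate, glutamine, proline and asparagine list 8 of 11 tested genes were higher and 0 lower (median 0.40). The asparagine synthetases ASN1 and ASN2 differed by 0.97 and 0.49, the aspartate aminotransferase AAT2 by 0.75 and the alanine aminotransferase ALT1 by 0.77. ASN1 had −0.32, 0.76 and 1.72 in high-score segregants, against −0.85, −0.14 and 0.47 in low-score segregants. ASN1 and ASN2 are near-identical, so their probes may share signal. Glutamine synthetase (GLN1) and the proline genes PRO1 and PRO3 were not called. Across 108 segregants the means of the 9 amino acid lists correlated pairwise at 0.62 to 0.93, a description of points that share arrays.

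The regulators of the response moved far less than its targets. Among 13 listed genes, 3 were higher and 0 lower (median 0.02), and 10 had no call. GCN4 itself had −0.08, 0.41 and 1.09 in high-score segregants, against −0.05, 0.24 and 0.55 in low-score segregants. The ranges overlapped, with 12 of 36 high-score segregants above every low-score one, and the difference was 0.22 (SE 0.0535, limma adjusted p = 0.00134). With LEU2 state as a covariate it was 0.15 and not called (adjusted p = 0.11), and with the leading number as a fixed block 0.16, also not called. GCN2, the kinase, differed by 0.21 (0.31 with the covariate, called), and YIH1, an inhibitor of Gcn2 activation, by 0.16. The Gcn2 partners GCN1 and GCN20 differed by 0.00 and 0.02, and neither was called, nor were the genes of the eIF2 and eIF2B subunits.

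Other genes reported as Gcn4 targets had 6 of 7 higher and 1 lower, with a median of 1.92. PCL5, a cyclin that acts in Gcn4 turnover, had −0.78, 1.73 and 2.60 in high-score segregants, against −1.32, −0.65 and 0.57 in low-score segregants, and 28 of 36 exceeded every low-score segregant. It differed by 1.92 (SE 0.171, limma adjusted p = 6.70e-15). ATG41, an autophagy gene, differed by 2.38 and UGA3, an activator of genes for gamma-aminobutyrate use, by 1.09. STP4, a predicted transcription factor, differed by −0.59 and was called lower.

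SNZ1 and SNO1, neighbouring genes that encode proteins of vitamin B6 synthesis, rose mainly in segregants of LEU2 state RM. SNZ1 had −0.33, 2.08 and 4.99 in high-score segregants, against −0.65, −0.31 and 0.61 in low-score segregants, a difference of 2.38 (SE 0.241, limma adjusted p = 1.09e-12). SNO1 had −0.36, 2.59 and 5.17 in 31 high-score segregants, against −0.53, −0.24 and 0.15 in 30 low-score segregants, a difference of 2.55 (SE 0.322, limma adjusted p = 3.75e-09). Among high-score segregants, SNZ1 had 0.73, 2.58 and 4.99 in the 29 of LEU2 state RM, against −0.33, −0.29 and 1.10 in the 6 of LEU2 state BY with a value. Most high-score segregants of LEU2 state BY thus had SNZ1 at the level of low-score segregants. The scores of these state BY segregants were mostly low within the high-score group. They were 1.13 in 23-3-d and 0.764 in 17-2-d, but 0.341 to 0.0340 in 18-1-d, 8-3-a, 15-4-d, 11-3-b and 6-7-d. The median of all high-score segregants was 0.698, so the SNZ1 values of the LEU2 states were not compared at matched scores.

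Whether a gene followed the score differently in the LEU2 states was tested as a difference of slopes, RM minus BY, over all 108 segregants; 143 of 5441 probes were called (2.63%). LEU2 state BY held 7 high-score segregants, and with each of them left out in turn the calls numbered 64 to 164, with 64 lacking 17-2-d and 74 lacking 8-3-a. SNO1, SNZ1, CTF13 and MTG1 were called in all 7 of these fits. Of the 7 segregants, SNO1 had a value in 5, SNZ1 and MTG1 in 6 and CTF13 in 7. Leaving out a segregant without a value takes nothing from that gene's own fit. SNO1 also had too few values for a slope within either LEU2 state. SNO1 differed by 2.51 per unit of score (SE 0.326, limma adjusted p = 1.00e-07) and SNZ1 by 1.58 (SE 0.256, limma adjusted p = 2.22e-05). The SNZ1 slope itself was 2.00 in LEU2 state RM and 0.42 in LEU2 state BY. Over the score range that both states share, with 92 segregants, SNZ1 differed by 1.99, while SNO1 had too few values there. The genes on either side of the pair in the R64 gene order of chromosome XIII, CTF13, a kinetochore protein, and MTG1, a mitochondrial GTPase, differed in slope by 1.30 and 0.91 (1.33 and 0.76 in the shared range). CTF13 had −0.38, 0.87 and 3.57 in high-score segregants, against −0.80, −0.22 and −0.0040 in low-score segregants, a difference of 1.38 (SE 0.198, limma adjusted p = 7.40e-08). One gene further out, UTP15 and ATP25 differed between high-score and low-score segregants by −0.05 and −0.15, and neither was called. The differences thus spanned 4 consecutive genes, CTF13, SNO1, SNZ1 and MTG1. Probe sequences were not used, and whether probes of these neighbours share signal was not tested.

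**Figure D4:**
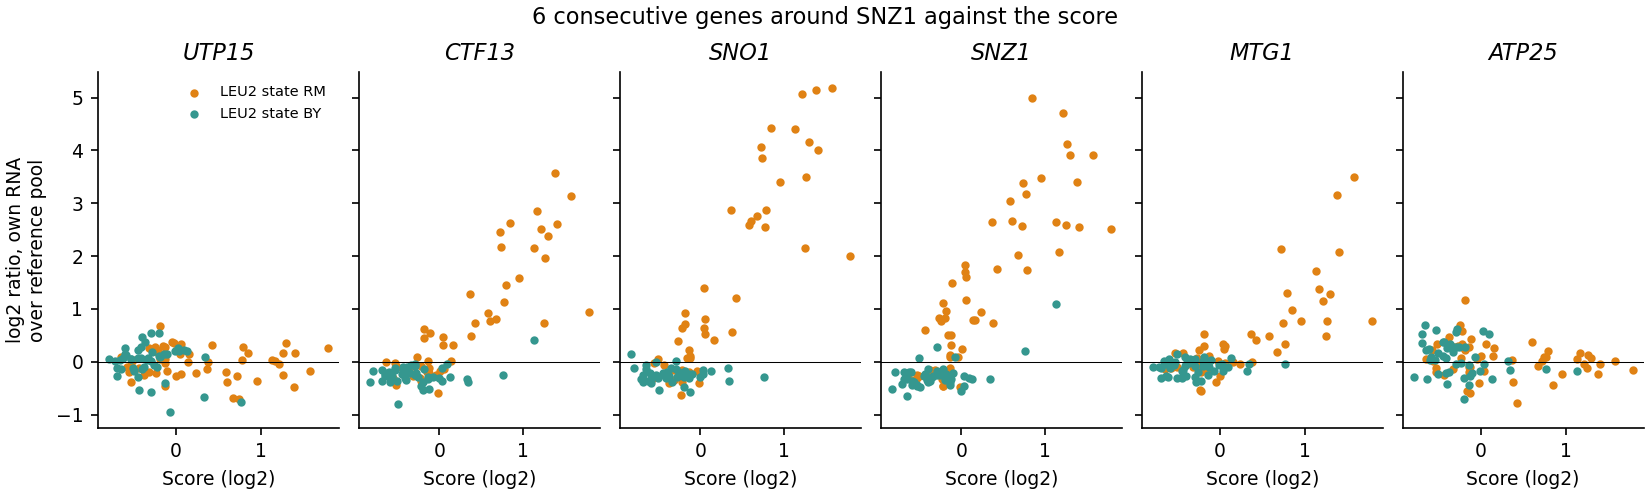
Log2 ratio over the BY pool (vertical axis) against the score (horizontal axis) for 6 consecutive genes of chromosome XIII, 1 point per segregant, coloured by LEU2 state. SNO1 and SNZ1, with CTF13 and MTG1 beside them, climb with the score in LEU2 state RM, while UTP15 and ATP25 do not.

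Lists linked to amino acid supply outside synthesis had lower medians than most synthesis lists. Purine synthesis was level with the glutamate, glutamine, proline and asparagine list (0.40). Purine synthesis had 7 of 8 tested genes higher and 0 lower (median 0.41), and one-carbon and glycine metabolism 7 of 8 higher and 0 lower (median 0.34). With the 4 marker states 5 of 8 one-carbon genes were higher. Within LEU2 states RM and BY 2 of 8 and 1 of 8 were (7 and 3 at an unadjusted p under 0.05). Between the parents 0 of 6 were higher and 4 lower in RM, also against BY replicates 3 to 6. ADE3, the cytosolic tetrahydrofolate synthase, had −0.23, 0.55 and 1.31 in high-score segregants, against −0.31, −0.06 and 0.20 in low-score segregants. It exceeded every low-score segregant in 33 of 36 and differed by 0.62 (SE 0.0607, limma adjusted p = 1.78e-13). In pyrimidine synthesis 1 of 9 genes was higher, beside 11.9% over all probes: URA10, a minor orotate phosphoribosyltransferase, by 1.09.

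Of 20 tested amino acid and ammonium permeases 7 were higher and 0 lower (median 0.08). With LEU2 state as a covariate 3 were higher, with the 4 marker states 3, within LEU2 state RM 3 of 19 and within LEU2 state BY 0 of 19 (2 at an unadjusted p under 0.05). BAP2, a branched-chain amino acid permease, had −0.14, 1.38 and 2.52 in high-score segregants, against −0.73, 0.14 and 1.57 in low-score segregants, and differed by 1.17 (SE 0.127, limma adjusted p = 1.22e-11), or 0.64 with LEU2 state as a covariate. DIP5 and CAN1, permeases of acidic and of basic amino acids, differed by 0.53 and 0.33. In nitrogen catabolism 3 of 14 were higher, the activators GLN3 (0.52) and GAT1 (0.59) and the glutamate dehydrogenase GDH2 (0.44). PUT2 of proline use (−0.19) was the 1 lower gene. Over all probes 11.9% were higher and 17.2% lower. With LEU2 state as a covariate 2 were higher and with the 4 marker states 1, and 0 were lower in either fit. DAL1, DAL3, DAL5, DAL80, DUR3 and UGA4 were not tested for missing values, so the count does not describe the whole list. Of 18 cytosolic aminoacyl-tRNA synthetase genes 9 were higher and 0 lower (median 0.13), led by KRS1 for lysine at 0.52.

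**Figure D5:**
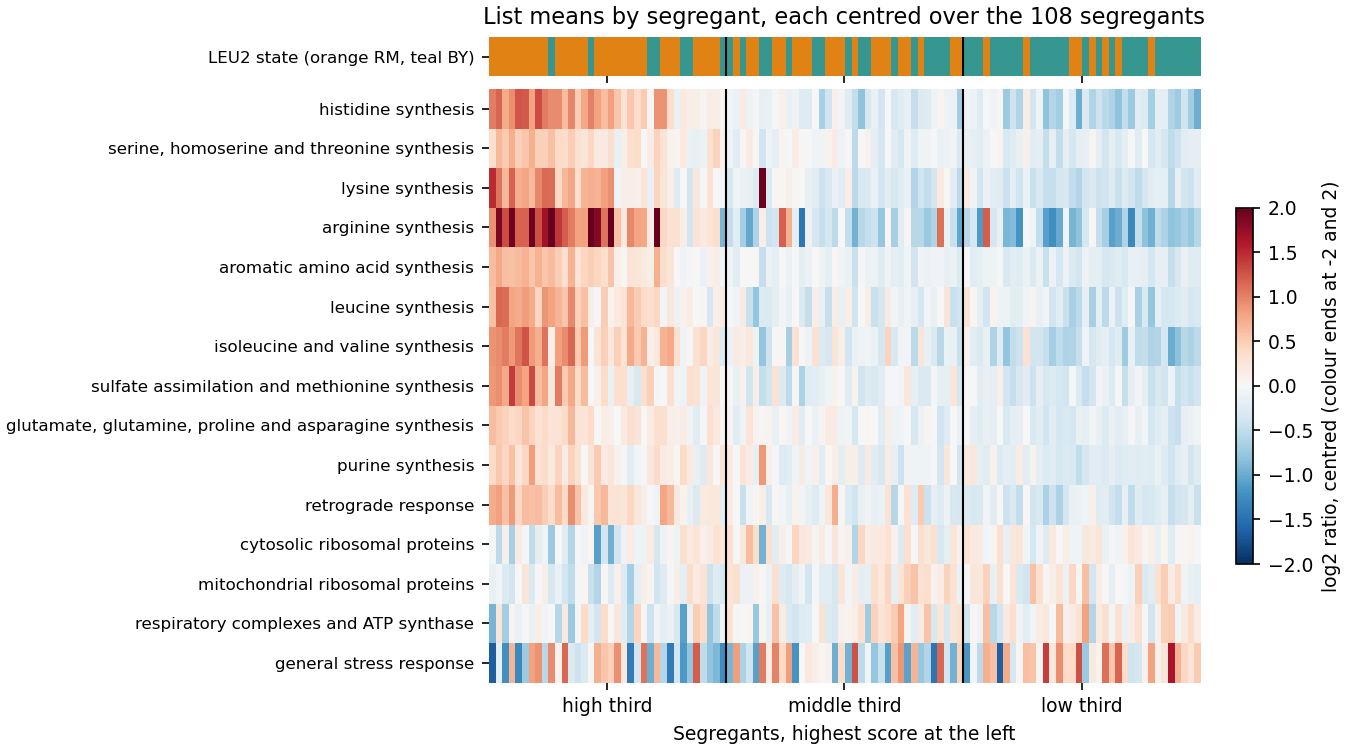
Mean log2 ratio of each gene list (rows) in each segregant (columns), sorted from high to low score, with a bar above giving LEU2 state (orange RM, teal BY). Each list mean is centred over segregants and the colour ends at −2 and 2; the amino acid lists run together from high on the left to low on the right, with LEU2 state RM in 29 of the 36 columns at the left and 8 of the 36 at the right.

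Of 35 tested cytosolic ribosomal protein genes 0 were higher and 24 lower (median −0.18). RPS22A had −1.28, −0.07 and 0.56 in high-score segregants, against −0.39, 0.17 and 0.54 in low-score segregants, and differed by −0.34 (SE 0.0843, limma adjusted p = 0.00152). The ranges overlapped, with 9 of 36 high-score segregants below every low-score one. The limma count was 0 with LEU2 state as a covariate (4 at an unadjusted p under 0.05) and 1 without the 6 segregants of highest score, a fit in which 8.44% of all probes were higher and 7.96% lower. On the separate arrays 16 of 35 and 19 of 36 were lower, with quantile normalization 15 of 35, and with the leading number as a fixed block 0 of 35 (5 at an unadjusted p under 0.05, list median −0.15). Of 25 ribosome biogenesis genes limma called 0, and 3 had an unadjusted p under 0.05 (list median −0.07).

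Of 30 mitochondrial ribosomal protein genes 25 were lower and 0 higher (median −0.24). MRPS16 had −0.40, 0.04 and 0.52 in high-score segregants, against 0.02, 0.26 and 0.66 in low-score segregants, and 16 of 36 lay below every low-score segregant. MRP2 differed by −0.36 (SE 0.0603, limma adjusted p = 2.02e-06) and MRPS16 by −0.27. The LEU2 covariate left 7 of 30 lower (median −0.21), and 18 had an unadjusted p under 0.05. The separate arrays gave 26 and 12, and the fixed block on the leading number gave 5 (median −0.20).

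Respiratory complexes and ATP synthase had 19 of 29 lower and 0 higher (median −0.27), among them COX4, a cytochrome oxidase subunit, at −0.41 and ATP16 at −0.31. In the tricarboxylic acid cycle 6 of 14 were lower and 0 higher (median −0.22), led by the malate dehydrogenase MDH1. MDH1 had −1.41, −0.26 and 0.79 in high-score segregants, against −0.72, 0.39 and 1.19 in low-score segregants, and differed by −0.57 (SE 0.111, limma adjusted p = 4.22e-05). The LEU2 covariate left 9 of 29 and 4 of 14 lower, in a fit where 7.43% of all probes were lower. The list medians in that fit were −0.30 and −0.30, and 21 and 9 genes had an unadjusted p under 0.05. Leaving out the 6 segregants of highest score left 9 and 3 (medians −0.22 and −0.19). With arrays centred on the median 12 of 29 respiratory genes were lower, and with quantile normalization 27 of 29 (median −0.40) and 10 of 14 of the cycle. With the leading number as a fixed block 1 of 29 and 2 of 14 were lower (medians −0.22 and −0.28). Retrograde response genes, which supply 2-oxoglutarate for glutamate when mitochondria are impaired, went the other way, with 6 of 7 higher and 0 lower (median 0.66). DLD3, a 2-hydroxyglutarate transhydrogenase, had −0.31, 0.92 and 2.31 in high-score segregants, against −1.50, −0.36 and 1.05 in low-score segregants, and differed by 1.38 (SE 0.136, limma adjusted p = 3.66e-13). CIT2, the peroxisomal citrate synthase, differed by 1.00, or by 0.51 with LEU2 state as a covariate.

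General stress response genes had 10 of 23 lower and 1 higher, HSP78 (list median −0.38). HSP12, a membrane-associated heat shock protein, had −5.20, −1.17 and 3.13 in 32 high-score segregants, against −3.50, 0.91 and 3.17 in low-score segregants, a difference of −1.95 (SE 0.467, limma adjusted p = 0.00101). The ranges overlapped almost wholly, and 6 high-score segregants lay below every low-score one. MSC1, TPS2 of trehalose synthesis and PGM2, phosphoglucomutase, differed by −1.18, −0.52 and −0.72. With LEU2 state as a covariate 11 of 23 were lower (median −0.57) and HSP12 differed by −2.82, and with the 4 marker states 11 (median −0.70) and −3.29. Without the 6 segregants of highest score 5 of 23 were lower, with arrays centred on the median 5, and with the leading number as a fixed block 4.

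Among carbon source genes, glycolysis had 1 of 9 tested genes lower, the glucokinase GLK1 (−0.63). Gluconeogenesis had 1 of 6 lower, the alcohol dehydrogenase ADH2 (−0.40), beside 17.2% lower over all probes. Not tested for missing values were FBA1, TPI1, TDH2, TDH3, ENO1, ENO2, PDC1 and ADH1 of glycolysis. The same held for FBP1, MLS1, CAT8, SIP4, ACS1, SFC1 and JEN1 of gluconeogenesis, so neither count describes its whole pathway. Ergosterol synthesis had 1 of 23 higher, the phosphomevalonate kinase ERG8 (0.28), beside 11.9% higher over all probes. Of 11 tested hexose transporter genes 2 were higher, the glucose sensor RGT2 (0.22) and HXT13 (0.54), beside 11.9% over all probes. Lower were 3, HXT4 (−0.67), HXT6 (−0.69) and HXT7 (−0.74), beside 17.2%. HXT6 and HXT7 are near-identical and their probes may share signal. Within LEU2 states RM and BY 1 of 11 and 1 of 10 were higher and 0 lower. HXT1, HXT9, HXT10, HXT17 and GAL2 were not tested for missing values. Phosphate starvation genes had 6 of 11 higher and 0 lower (median 0.53), or 4 of 11 with LEU2 state as a covariate and 2 of 11 with the fixed block. Their lowest adjusted p belonged to the vacuolar alkaline phosphatase PHO8, which differed by 0.66 (SE 0.0708, limma adjusted p = 8.96e-12), and their largest difference to the phosphate transporter PHO84, at 1.30 (adjusted p = 0.0162). PHO8 had −0.05, 0.59 and 1.41 in high-score segregants, against −0.33, −0.04 and 0.45 in low-score segregants. Iron uptake genes had 3 of 10 higher, SIT1 (0.70), FET3 (0.67) and ARN1 (0.50), and with the LEU2 covariate limma called 0 (2 at an unadjusted p under 0.05).

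Mating-type genes differed along with the STE2 state given above. Of 7 a-specific genes 4 were higher and 0 lower, and all 5 alpha-specific genes were lower, STE3, the receptor for a pheromone, with a difference of −2.08 (SE 0.565, limma adjusted p = 0.00360). With LEU2 state as a covariate limma called 0 genes of either list, and 0 had an unadjusted p under 0.05. With the leading number as a fixed block limma also called 0, and 5 genes of each list had an unadjusted p under 0.05. The separate arrays gave 1 and 3 a-specific and 2 and 2 alpha-specific calls. Pheromone response genes had 3 of 11 higher, beside 11.9% over all probes: FUS1, which acts in cell fusion (0.88), FUS3, the mating kinase (0.38), and FUS2 (0.25). The separate arrays gave 1 of 11 and 2 of 12, the fixed block 0 of 11, and the fit without the 6 segregants of highest score 1 of 11. Within LEU2 states RM and BY 0 of 10 and 6 of 11 were higher. Of 10 daughter-cell separation genes limma called 0, and 2 had an unadjusted p under 0.05.

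The genes that followed the score most closely across segregants were sought over all tested probes outside it, by Pearson's r. The 8 named genes with the highest r were MET22 (0.92), MCH4 (0.91), HIS4 (0.90), ARO3 (0.89), LYS1 (0.88), MET16 (0.88), ATR1 (0.88) and ASN1 (0.87), over 91 to 108 segregants. MCH4, related to monocarboxylate permeases, had −0.30, 1.61 and 3.47 in high-score segregants, against −0.57, −0.24 and 1.06 in low-score segregants, and ATR1, a multidrug efflux protein, differed by 1.27. The lowest r belonged to TOM22, a receptor of mitochondrial protein import (−0.67), and to ALT2, GAS3 and YOL057W (−0.64 each). YOL057W differed by −0.31, and 23 of 35 high-score segregants lay below every low-score one. YOL057W is next to ARG1 in the R64 gene order, and ARG1 differed by 3.33 in the other direction.

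Within the 36 middle segregants, whose scores span a narrow range, limma called 0 of 5500 probes for a slope on the score. An unadjusted p under 0.05 was reached by 275, the 1 in 20 that chance gives. Of the 84 amino acid genes 55 had a slope above 0, with a median of 0.23 per unit of score. The median over all 5500 probes was 0.05, so most of all probes also had a slope above 0. The median SE over all probes was 0.433 per unit of score in this narrow range.

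The parents differed in part along the same genes. Between RM and BY, 2828 probes could be tested; 961 were higher in RM (34.0%) and 609 lower (21.5%). Among 59 amino acid genes tested there, 33 were higher and 11 lower in RM (median 0.20). Against BY replicates 3 to 6 alone, 34 were higher and 13 lower of 60, beside a background of 34.3% higher and 30.6% lower. BAT1 differed by 2.20 and LEU4 by 1.24 between RM and BY, and by 2.22 and 1.34 against BY replicates 3 to 6. ARG1 lay between 0.09 and 0.40 in the 6 RM replicates, against 0.48 and 0.38 in BY replicates 1 and 2 and −4.21, −2.39, −2.23 and −2.43 in BY replicates 3 to 6. ARG1 differed by 1.92 (SE 0.659) from all BY replicates and by 3.00 (SE 0.312, limma adjusted p = 4.93e-06) from replicates 3 to 6. ARG7 and ATG41 differed by −0.02 and 0.09 from all BY replicates, without a call, and by 0.26 and 0.84 from replicates 3 to 6, both called.

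Of the mitochondrial lists, whose calls were lower in high-score segregants, every gene tested between the parents was higher in RM. All 16 tested mitochondrial ribosomal protein genes, all 22 respiratory genes and all 12 tricarboxylic acid cycle genes were higher in RM than in BY, with median differences of 0.40, 1.27 and 0.87, and all 16, 23 and 12 were higher against BY replicates 3 to 6. The aminoacyl-tRNA synthetases had 0 higher and 7 lower of 18 in RM (14 lower against BY replicates 3 to 6). Of the 647 probes higher in high-score segregants, 297 could be tested between parents, and 130 were higher and 67 lower in RM, or 144 and 82 of 317 against BY replicates 3 to 6. Of the 938 lower ones, 530 could be tested, and 247 were higher and 66 lower in RM, or 263 and 134 of 558 against BY replicates 3 to 6.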

How the data were processed

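Log2 ratios were used as the authors deposited them, in the series' value table; the base is not stated. Per the labels, each array carried strain RNA and BY4716 pool RNA. The sources used here do not give the scanner, the background correction or the normalization. Each deposited column had a mean of 0 (largest absolute mean 1.16e-08); after the sign was turned to strain over pool, medians lay between −0.0969 and 0.0735. Of 7085 probes, 5645 had 1 gene symbol and 1440 none; the R64 gene table gave current names and gene order. No sequence or coordinate was used.

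A pair value was the mean of 2 arrays and needed both. The comparisons used limma 3.58.1 in R 4.3.3 (lmFit, eBayes) with Benjamini-Hochberg adjustment over all probes tested, those with a value in at least 80% of each group; adjusted p-values under 0.05 were called. Scripts were tested on simulated data. The number of arrays limits the precision.

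The segregant groups and the 35 gene lists were chosen with earlier results of these data known, and support nothing independently. Genes were named by rule: the 12 highest and 12 lowest differences, 4 per list by adjusted p, the regulators, the strain markers and the 8 highest and 4 lowest correlations with the score; a few others were named after their values were seen (CTF13, MTG1, UTP15, ATP25, STP4, LEU1, HSP78, HXT4, PHO84 and uncalled list genes). Alternatives changed the score, grouping, scaling, filter, weights and covariates. Those with LEU2 state alone, within LEU2 states, without the 6 highest segregants, without weak dye-swap agreement, in the shared score range, without single segregants, with a fixed block and with BY replicates 3 to 6 were added after seeing the data.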

Additional observations from a re-analysis of the deposited data

Results flagged for a closer look

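Among parental replicates, 28 sets (the score, its genes and the genes of largest difference, in RM and in BY) were examined for 1 value far from the others, and 3 had one, where chance gives about 1 in 20. ARG1 in RM replicate 6, at 0.397, lay far above the other RM replicates. OAC1 in RM replicate 5, at 2.068, lay far below them. HOM2 in BY replicate 2, at −0.004969, lay above the other BY replicates, which ran from −0.111 to −0.077. Replicate 2 is 1 of the 2 BY replicates that stood apart, but the other of them, replicate 1, had the lowest HOM2 value.

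Of 165 named genes tested for a slope on the score that differed between LEU2 states RM and BY, 9 passed an adjusted p of 0.05 over all probes. The slope in LEU2 state RM exceeded that in state BY for SNO1 (2.509), SNZ1 (1.582), FET3 (1.472) and ERB1 (0.8102). It also did for ALT1 (0.7483), MET16 (0.6539), ILV2 (0.4671) and RGT2 (0.2379). For GCN20 it was below that in state BY (−0.4714). ERB1 did not rise with the score in either state, with slopes of −0.10 in RM and −0.91 in BY. In the score range that both states share, SNZ1, ERB1, ALT1 and ILV2 were again called, MET16, FET3, GCN20 and RGT2 were not, and SNO1 could not be tested. That fit reuses most of the same segregants and is not independent. With each of the 7 high-score segregants of LEU2 state BY left out in turn, SNO1, SNZ1, ALT1 and MET16 were called in all 7 fits, ERB1 and RGT2 in 6, FET3 in 5, and ILV2 and GCN20 in 4. ERB1, a ribosome biogenesis gene, had −3.44, −0.08 and 0.18 (lowest, median, highest) in those segregants, and without 23-3-d its slope difference was 0.17 (limma adjusted p = 0.583).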

How the results depend on the processing

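The 1585 calls became 746 with 4 marker states as covariates, 835 with LEU2 state alone, 275 and 503 between the same groups within LEU2 states RM and BY, 725 for the slope within LEU2 state BY and 849 without the 6 segregants of highest score. Higher calls were 369, 431, 181, 319 and 417 in the first 5 of these, and lower calls 377, 404, 94, 184 and 308, with 412 lower without the 6 segregants and 593 for the upper against the lower 54 segregants. The within-state fits have fewer samples. The leading number as a fixed block gave 632 calls, 366 higher and 266 lower, and as a random block 1562. Slope differences numbered 70 in the shared score range and 64 to 164 with each high-score segregant of LEU2 state BY left out. Calls between RM and BY ranged from 1469 to 1764 with each replicate left out. With LEU2 state as a covariate, 104 of 130 called named genes kept their call and 2 changed sign; without the 6 segregants, 107 of 128 kept it. Sign changes were LEU2 at 0.2549 (4 covariates), 0.3398 (LEU2 state), 0.1584 and 0.543 (within states RM and BY), 0.2229 and 0.5895 (slopes within them), SAG1 at 0.2449, 0.1576, 0.2469, 0.05692 and, for the slope within BY, 0.5979. Within state RM, STE2 was −0.4787 and BAR1 −0.518. Within state BY, as groups and where given as slopes, were DIP5 (−0.04086, −0.05528), GLK1 (0.01565, 0.08699), FET3 (−0.3711, −0.7117), MF(ALPHA)2 (0.07032, 0.6312), GAT1 (−0.004587), STE3 (slope 0.1467) and AFB1 (slope 0.000119). LEU2 changed sign only in fits that use LEU2 state. That state was assigned from the LEU2 transcript itself, so these fits remove its difference by construction. The causes of the other changes were not tested. No paired analysis was possible because RM and BY replicate numbers name no shared sample; segregants have only the leading number.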

Other observations

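A few genes outside the lists, chosen after their values were seen, had a slope on the score that was lower in LEU2 state RM than in LEU2 state BY. INO1, the inositol phosphate synthase, differed by −2.44 per unit of score (SE 0.504, limma adjusted p = 0.00289), KAR2, a chaperone of the endoplasmic reticulum, by −0.70, and GFA1, which opens the synthesis of chitin and glycan precursors, by −0.59. These 3 genes were called with each high-score segregant of LEU2 state BY left out in turn. Of the 143 probes called for a slope difference, 100 had the lower slope in LEU2 state RM. Of 141 tested in the shared score range, 141 kept their sign and 57 were called. That range holds 92 of the same 108 segregants that gave these calls, so a kept sign is no independent support.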
